A study of Danio rerio with 31 samples.

Results

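This is a comparison of the midbrain transcriptome of wild and domesticated adult zebrafish, made with 8 of the 31 arrays of a brain microarray study. The study used 1-colour NimbleGen arrays, each with Cy3-labelled cDNA made with random primers from the RNA of an individual brain sample. The members are 4 midbrain arrays of Pargana, a wild population that the sample titles call Pargana North, and 4 midbrain arrays of Scientific Hatchery, a domesticated population called Hatchery from here on. They were chosen by their population and tissue labels alone, and sex was a covariate. Every fish was sexually mature, 1 year old and labelled as a control. Pargana was represented by 2 males (fish M85 and M140) and 2 females (M21 and M13), and Hatchery by 1 male (M57) and 3 females (M47, M123 and M119). The other midbrain arrays came from the wild population Nadia (4 arrays) and the domesticated population Transgenic Mosaic 1 (4 arrays). Telencephalon arrays of the same populations were also measured, 4 from Pargana and 3 from Hatchery. The labels give no generations in captivity, rearing conditions or transgene, and the comparison is between 1 wild and 1 domesticated stock, so population of origin and domestication cannot be told apart here.

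The midbrain of a teleost holds the optic tectum, the layered target of the retina, and the tegmentum beneath it. It turns visual input into orienting and escape movements and lies against the hypothalamus, the pituitary and the cerebellum, so a dissected sample can carry neighbouring tissue. Stocks kept apart for many generations can differ in a transcript's level and also in the sequence a probe binds, and a microarray value does not separate them.

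Values are the deposited log2 intensities, summarised over the probes of each gene by RMA, a method that makes arrays comparable and reports a relative level without a call of presence. A difference of 1 is a 2-fold change, differences are adjusted for sex, and a gene is named as changed where limma, a linear model fitted to all 15648 genes, gave a Benjamini-Hochberg adjusted p under 0.05. Medians of the 8 arrays lay between 9.63 and 9.73 and midbrain arrays correlated with each other at 0.966 to 0.988. The 30 measured genes of the tectum, tegmentum and thalamus averaged 3.75 higher in the midbrain arrays than in the telencephalon arrays, and the 24 telencephalic genes were 1.81 lower on that average (-1.81). In bulk tissue, fewer cells of a type and less RNA per cell cannot be told apart. Below, array values are given in the order M85, M21, M140, M13 for Pargana and M57, M47, M123, M119 for Hatchery. T85 is the telencephalon array of the same fish as M85, and so on.

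Some of the 8 arrays stood apart in genes of adjoining tissue, as the plot of tissue lists by array shows. Hatchery M57, the only male of its group, averaged 6.99 over 24 genes of the diencephalon and hypothalamus, while the other 3 Hatchery arrays lay between 8.70 and 9.47 and the Pargana arrays between 8.83 and 9.03. The melanin-concentrating hormone gene pmchl, a hypothalamic peptide gene, read 4.79 in that array and 10.68 to 12.88 in the other 7. The same array was highest of the 8 in the collagen gene col1a1a, at 12.85 against 8.65 to 10.55. Pituitary hormone genes (14 measured) averaged 9.24 in Pargana M85, 8.82 in Pargana M13 and 8.31 in Hatchery M123, and 7.11 to 8.09 in the remaining 5 arrays. Growth hormone, gh1, ran from 4.38 to 11.95 among the Pargana arrays and from 4.22 to 7.60 among the Hatchery arrays. Genes of retina, lens and pineal (48 measured) averaged 7.42 in Pargana M21, 6.40 to 6.84 in the other Pargana arrays and 6.43 to 6.496 in Hatchery. Microglia and leukocyte genes (28 measured) averaged 8.66 in Pargana M140 and 7.62 to 7.88 in the other 7.

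**Figure D1:**
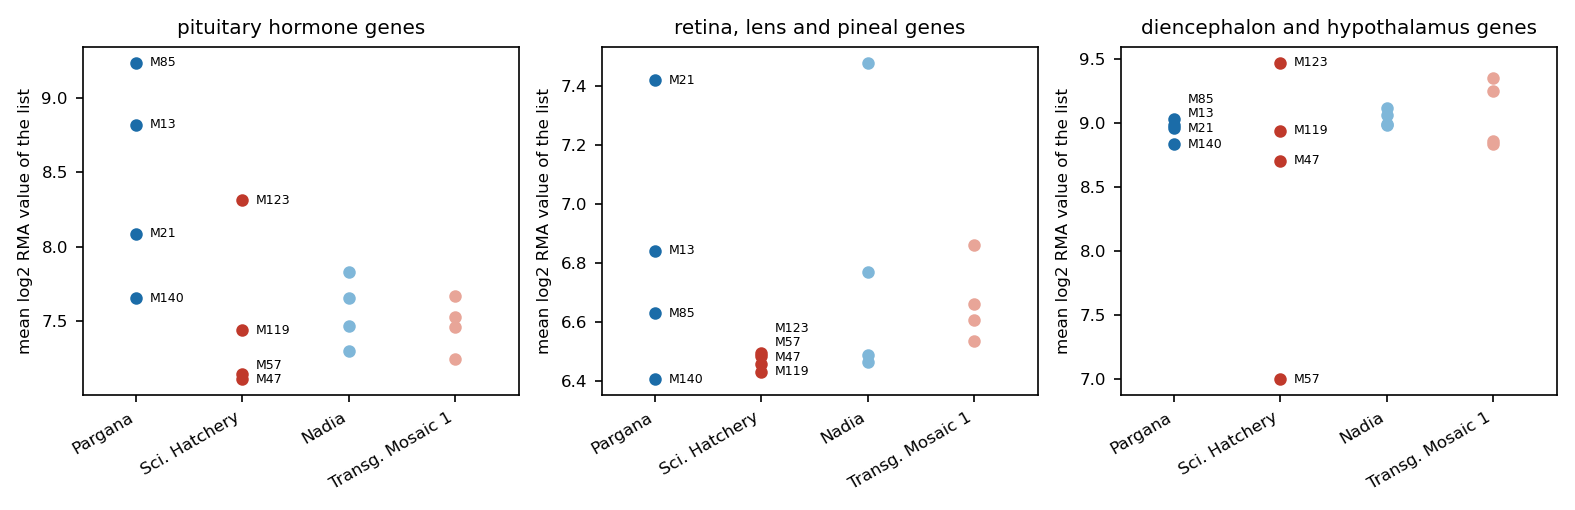
Mean log2 RMA value of 3 tissue gene lists in each midbrain array, 1 point per array, by population, with array names beside the Pargana and Hatchery points. Pargana M85 and M13 were highest in pituitary genes, Pargana M21 was the highest of the 8 in eye genes, and Hatchery M57 lay at 6.99 in diencephalic genes, below the other 15 arrays.

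Between Pargana and Hatchery midbrain, 139 of 15648 genes passed (0.888%), 69 higher in Pargana (0.441%) and 70 lower (0.447%). At an unadjusted p under 0.05 there were 2268 of the 15648. List counts below are to be read beside these values for all genes, 0.888% called and 2268 of 15648 unadjusted. The lists were chosen with earlier results of these data known, so their shares are description. Of the 139, 74 differed by at least 2-fold (0.473% of all genes), and 9 higher and 5 lower genes by at least 4-fold. The median size of the difference was 1.05 among the 139, with a range of 0.40 to 4.66, and 0.17 among all genes. In 136 of the 139 the 4 Pargana arrays lay wholly above or wholly below the 4 Hatchery arrays, as they did in 9.52% of all genes tested. The genes were called from these same arrays, so this separation largely follows from the call and adds no support to it. Of the 139, 27 genes have no symbol and 9 only a clone name. In 20 of the 139 both group means were under 7.06, the upper limit of the dimmest 25% of genes, where small signals compress a fold change. Of the genes named below, svopb, SELENOO, prkag3b, ahrrb, NDRG1, CYP11A1 and ENSDARG00000054373 (B3GNT3) are among these 20.

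The count rests on the other populations' arrays and on single arrays. The fit holds all 16 midbrain arrays, which share an estimate of the spread; with only the 8 arrays of these populations 32 genes passed, 26 of them among the 139, and without Transgenic Mosaic 1 there were 52. Leaving out 1 array at a time gave 63 genes without Hatchery M57, 67 without Pargana M21, 69 without Hatchery M119, 73 without Pargana M13, 82 without Hatchery M123 and 91 without Hatchery M47, against 130 and 151 without Pargana M85 or M140. Without both Pargana M85 and M13, the arrays highest in pituitary genes, 81 passed. A set of 32 genes, 17 higher and 15 lower in Pargana, was called in each of the 8 fits that left out 1 array. The 30 named genes are the 15 largest differences in each direction among called genes with a symbol and groups that do not overlap. Of these 30, 13 belong to the set of 32 and 16 were called with the 8 arrays alone. With all 31 arrays 24 were called, and with the female arrays alone (2 against 3) 4 were. Genes without a symbol are left out, among them ENSDARG00000093414 (-2.34, SE 0.26). It was called in each fit without 1 array and with the 8 arrays alone. With the 8 arrays alone the calls of mmp20a, mmp20b, crp3, cpt1a2b, AS3MT, SELENOO, xndc1, CA12, WASHC3, MARCKS, prkag3b, cyp2p6, TGFBI and NDRG1 were lost (adjusted p 0.0630 to 0.159). With all 31 arrays those of AS3MT, ENSDARG00000054373 (B3GNT3), ahrrb, rbp3, SELENOO and TGFBI were lost (0.0522 to 0.407). Of the smaller list members named below, CYP11A1, KCNA1 and MMP14 were lost in both of these fits (0.0609 to 0.273), and plvapb, CBLN4 and NEIL1 with the 8 arrays (0.0767 to 0.152).

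**Figure D2:**
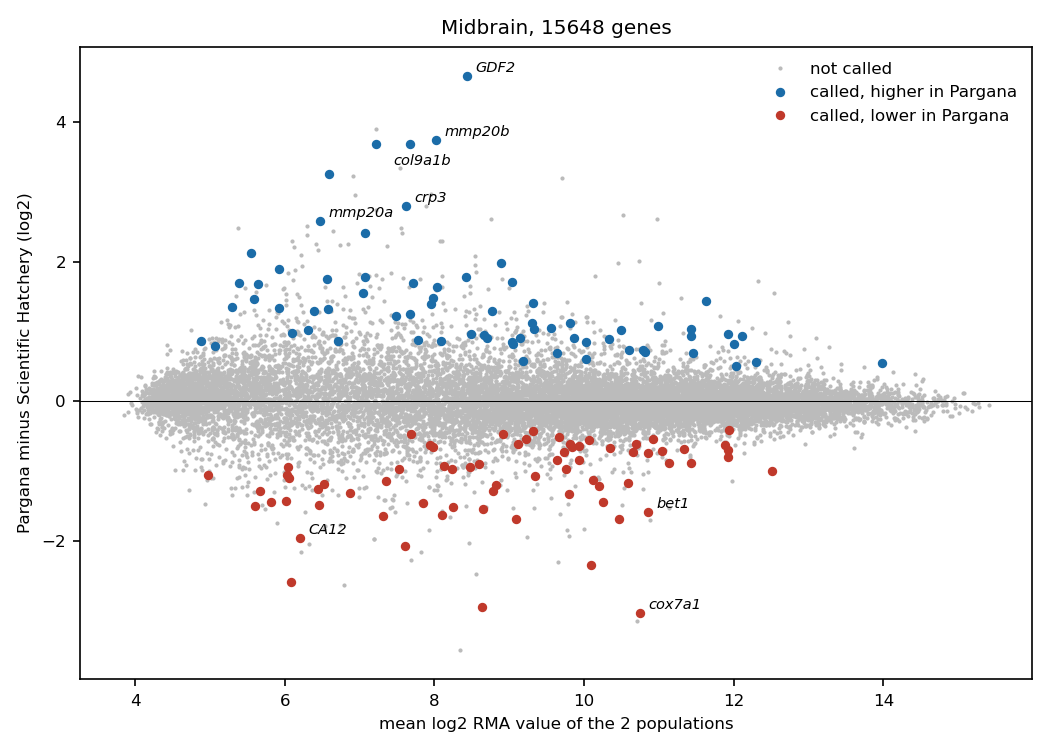
Pargana minus Hatchery difference in midbrain (log2) against the mean log2 RMA value of both populations, 1 point per gene for 15648 genes. Blue points are the 69 genes called higher in Pargana and red points the 70 called lower, and GDF2 at 4.66 and cox7a1 at -3.02 are the extremes among called genes with a symbol.

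A secreted factor and a matrix enzyme held the largest rises among genes with a symbol. GDF2, whose product BMP9 is a circulating ligand of the BMP family that acts on blood vessels in mammals, read 10.20, 11.12, 10.23 and 11.12 in Pargana and 6.19, 6.27, 6.36 and 5.95 in Hatchery. The lowest Pargana array lay almost 4 log2 units above the highest Hatchery array, and the difference was 4.66 (SE 0.51, limma adjusted p = 0.00146), a 25.2-fold higher level. Its call held in each fit without 1 array and with the 8 arrays alone.

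The metalloproteinase genes mmp20a and mmp20b, relatives of the mammalian enamel protease, were both higher in Pargana. mmp20b read 9.09, 10.73, 10.20 and 9.47 in Pargana and 5.10, 5.03, 6.105 and 8.48 in Hatchery, so the groups were separate although Hatchery M119 came within 1 log2 unit of the lowest Pargana array. The difference was 3.74 (SE 0.65, adjusted p = 0.0183), and the call was lost without Pargana M21 or Hatchery M57 (adjusted p 0.0596 to 0.0705). For mmp20a the values were 7.38, 8.97, 8.78 and 6.14 in Pargana and 5.98, 4.93, 4.72 and 4.89 in Hatchery. The lowest Pargana and highest Hatchery values nearly touched, with a difference of 2.57 (SE 0.48, adjusted p = 0.0277). Its call was lost without Pargana M21, Hatchery M47, Hatchery M123 or Hatchery M119 (adjusted p 0.0569 to 0.0666), and neither gene passed with the 8 arrays alone (adjusted p = 0.159 for mmp20a and 0.110 for mmp20b).

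Among other matrix genes, CILP2, a cartilage intermediate layer protein gene, read 8.10, 8.13, 8.16 and 8.17 in Pargana and 9.64, 9.56, 9.18 and 9.28 in Hatchery. The Pargana arrays were almost identical and all lay below Hatchery, a fall of 1.28 (SE 0.17, adjusted p = 0.00422) that was called in every fit without 1 array. TGFBI, a secreted matrix protein induced by TGF-beta (-1.45, SE 0.30, adjusted p = 0.0434), and the membrane-type metalloproteinase gene MMP14 (-1.18, SE 0.24, adjusted p = 0.0393) were lower with less certainty. TGFBI lost its call in all but the fit without Pargana M85 (adjusted p 0.0732 to 0.127 in the other 7), and MMP14 in 6 of the 8, all but those without Pargana M140 or Hatchery M47 (0.0588 to 0.122). A second gene under the symbol MMP14 differed by 0.19 (SE 0.33) and did not pass. The matrix and metalloproteinase list as a whole had 2 of 61 measured members higher and 2 lower, 6.56% called beside 0.888% of all genes, with a median of -0.08 beside -0.004 over all genes. The list was chosen with earlier results of these data known. Its 2 members called higher are mmp20a and mmp20b, neighbours on the chromosome, so the share is description.

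The collagen gene col9a1b, named here because it is the largest of the 3 called genes whose groups overlap, read 10.32, 10.48, 6.33 and 10.59 in Pargana and 5.77, 5.58, 5.80 and 6.51 in Hatchery. Pargana M140 lay inside the Hatchery range and the other 3 Pargana arrays almost 4 log2 units above it (difference 3.68, SE 0.70, adjusted p = 0.0282). In telencephalon T140 again stood alone, at 6.37 against 10.43 to 10.64 in the other 3 Pargana arrays. The other overlapping genes were DUSP6, a phosphatase gene of MAP kinase signalling (1.02, SE 0.20), and the mitochondrial carrier gene slc25a39 (0.61, SE 0.13).

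**Figure D3:**
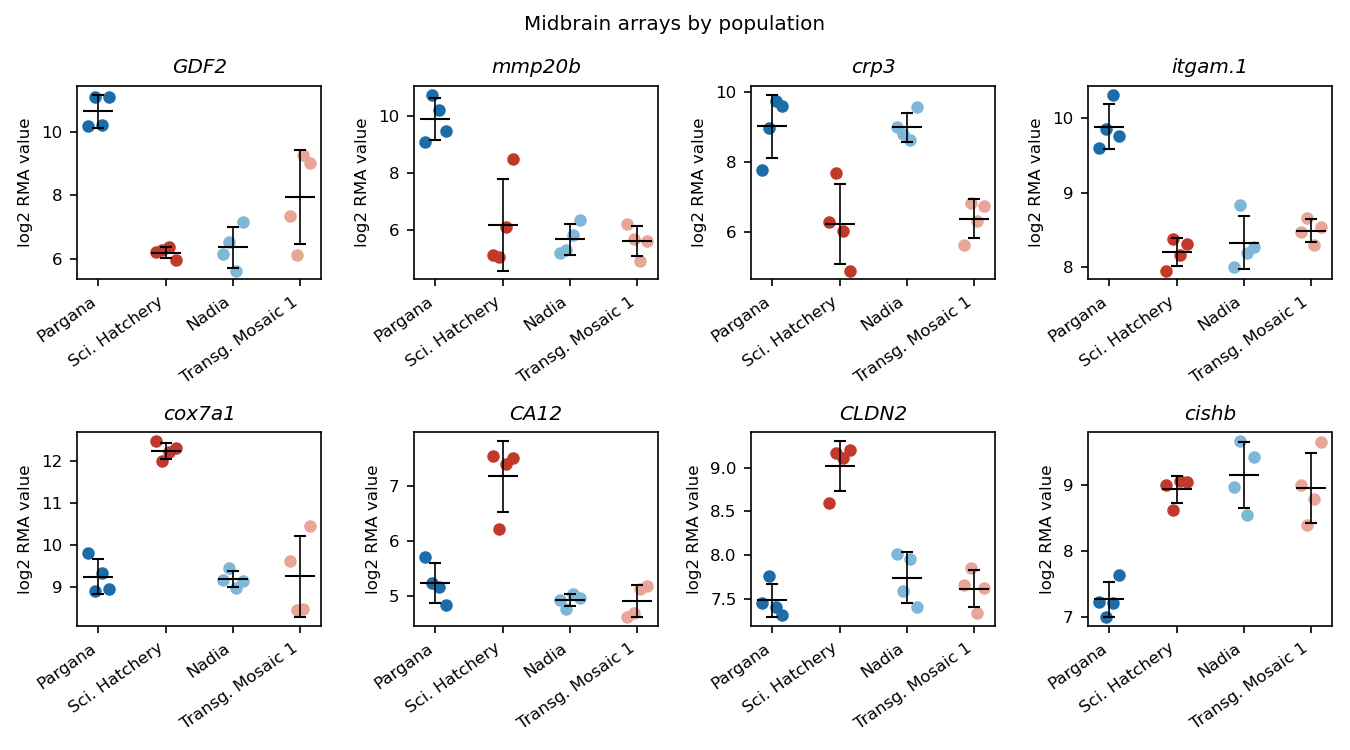
Log2 RMA values of 8 genes in every midbrain array, 1 point per array, with the mean and SD of each population (n = 4). itgam.1 was high in Pargana alone, GDF2 and mmp20b were highest in Pargana with Transgenic Mosaic 1 arrays up to 9.27 for GDF2 and Hatchery M119 at 8.48 for mmp20b, crp3 was high in both wild populations, and cox7a1, CA12 and CLDN2 were high in Hatchery alone.

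Among immune genes, itgam.1, an integrin alpha M type gene of leukocytes, read 9.605, 9.85, 10.31 and 9.76 in Pargana and 7.95, 8.38, 8.16 and 8.31 in Hatchery. All Pargana arrays lay more than 1 log2 unit above all Hatchery arrays, with a difference of 1.70 (SE 0.19, adjusted p = 0.00146) that was called in each fit without 1 array. The highest value belonged to Pargana M140, the array highest in leukocyte genes, and without it the call remained; the part of leukocyte content in the difference was not tested.

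mxd, a member of the interferon-induced Mx GTPase family, read 8.48, 8.90, 8.09 and 7.47 in Pargana and 5.56, 6.01, 6.04 and 5.99 in Hatchery. The groups were separate by over 1 log2 unit, with a difference of 2.41 (SE 0.38, adjusted p = 0.012), and the call held without any 1 array. It was the only called member of a list of 37 measured interferon and antiviral genes (2.7%, beside 0.888% of all genes). Of that list 21 were on the higher side, and its median was 0.11. The smallest p-values among the rest were those of the viral RNA sensor gene IFIH1 (-1.08, SE 0.32, adjusted p = 0.129) and the cytokine receptor gene crfb1 (-0.95, SE 0.35, adjusted p = 0.234), which did not pass. The interferon-stimulated gene isg20, which is outside the list, was called higher in Pargana (0.74, SE 0.15, adjusted p = 0.0348).

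crp3, a C-reactive protein family gene of the acute phase, read 7.75, 8.96, 9.72 and 9.597 in Pargana and 6.29, 7.69, 6.03 and 4.89 in Hatchery. Pargana M85 and Hatchery M47 differed by 0.063, so the separation was narrow, although the mean difference was 2.80 (SE 0.55, adjusted p = 0.0331). The call was lost without Pargana M21, M140 or M13 or Hatchery M57, M123 or M119 (adjusted p 0.0593 to 0.0984), without Nadia, without Transgenic Mosaic 1 and with the 8 arrays alone (adjusted p = 0.154). In telencephalon T85 was again the lowest Pargana array (7.83) and T47 the highest Hatchery array (8.10). crp3 was the only called gene of 31 acute phase and complement genes (3.23%), and its relative crp7 (-1.05, SE 0.41, adjusted p = 0.259) did not pass.

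The granzyme gene gzm3, a protease gene of cytotoxic cells, and 5 further genes named as of the set of 32 below were picked from it after their values were seen. gzm3 read 6.999, 7.13, 7.05 and 7.62 in Pargana and 6.08, 5.89, 6.03 and 5.77 in Hatchery, a clear separation with a difference of 1.32 (SE 0.17, adjusted p = 0.00283). Of 28 microglia and leukocyte genes, 26 antigen presentation genes and 40 finTRIM, NLR and TRIM genes, 0 passed in limma. At an unadjusted p under 0.05 the counts were 8, 1 and 7, beside 2268 of all 15648 genes. The called genes itgam.1, gzm3 and gzm3.4 are not members of these lists. The smallest p-values among the 28 leukocyte genes belonged to the purinergic receptor gene P2RY13 (1.04, SE 0.26, adjusted p = 0.0767) and the phagocyte oxidase gene cybb (1.28, SE 0.33, adjusted p = 0.0881).

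The largest fall among genes with a symbol was in a gene of energy metabolism. cox7a1, which encodes a subunit of cytochrome c oxidase that mammals use in heart and skeletal muscle, read 9.82, 8.90, 9.33 and 8.96 in Pargana and 12.47, 12.01, 12.21 and 12.30 in Hatchery. Every Hatchery array was more than 2 log2 units above every Pargana array, and the gene fell by 3.02 (SE 0.37, adjusted p = 0.00258), a level 8.13-fold lower in Pargana. The call held in each fit without 1 array and with the 8 arrays alone. The rest of the 62 oxidative phosphorylation genes did not pass, and the median of the list was -0.04; NDUFB8, a complex I subunit gene, came closest (0.42, SE 0.10, adjusted p = 0.0625).

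cpt1a2b, a carnitine palmitoyltransferase gene for the entry of fatty acids into mitochondria, was higher in Pargana by 1.78 (SE 0.30, adjusted p = 0.0164), with 7.51 to 8.41 in Pargana and 5.33 to 6.66 in Hatchery. Its call was lost without Pargana M21 or M13 (adjusted p 0.0531 to 0.0564). prkag3b, a gamma subunit gene of the energy sensor AMPK, was lower by 1.49 (-1.49, SE 0.27, adjusted p = 0.0214), with 4.47 to 5.21 against 5.80 to 6.75, and lost its call without Pargana M21, Hatchery M57 or Hatchery M123 (0.0543 to 0.0851). The gene ENSDARG00000014395 under the symbol SELENOO, for a mitochondrial selenoprotein, was higher by 1.69 (SE 0.26, adjusted p = 0.00807), at 5.78 to 7.05 against 4.35 to 4.80. The other gene of that symbol did not pass (-0.11, SE 0.18), and with all 31 arrays in the fit the first did not pass either (adjusted p = 0.284).

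AS3MT, an arsenite methyltransferase gene, was higher in Pargana (1.77, SE 0.38, adjusted p = 0.0466), at 8.95 to 9.80 in Pargana and 7.08 to 7.20 in 3 Hatchery arrays, while Hatchery M119 read 8.66. The cytochrome P450 gene cyp2p6 (-1.45, SE 0.31, adjusted p = 0.0466) and ahrrb, a repressor of the aryl hydrocarbon receptor (-1.29, SE 0.24, adjusted p = 0.0282), were lower. These 3 calls were lost without 6, 7 and 5 of the 8 arrays: AS3MT kept its call without Pargana M140 or Hatchery M119 and otherwise had an adjusted p of 0.0740 to 0.143, cyp2p6 kept it without Pargana M140 and otherwise had 0.0524 to 0.113, and ahrrb kept it without Pargana M85, Pargana M140 or Hatchery M119 and otherwise had 0.0625 to 0.0773. The last 2 belong to a list of 57 xenobiotic and glutathione genes, of which 2 were lower and 0 higher (3.51% called), with a median of -0.005.

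Among genes of ion transport and cell contact, CA12, a carbonic anhydrase gene, read 5.71, 5.24, 5.17 and 4.84 in Pargana and 7.55, 6.22, 7.40 and 7.51 in Hatchery. Hatchery M47 lay more than 1 log2 unit below the other Hatchery arrays and still above Pargana, with a difference of -1.95 (SE 0.27, adjusted p = 0.00507); the call held without any 1 array but not with the 8 arrays alone (adjusted p = 0.0720). CLDN2, a tight junction claudin gene, read 7.46, 7.76, 7.41 and 7.32 in Pargana and 8.60, 9.17, 9.11 and 9.20 in Hatchery. Its groups were well apart, with a difference of -1.51 (SE 0.18, adjusted p = 0.00231), called in each fit without 1 array. The vascular gene plvapb, which encodes a protein of endothelial fenestrae, was higher in Pargana (0.86, SE 0.16, adjusted p = 0.0262), and lost its call without Pargana M13 or Hatchery M47, M123 or M119 (adjusted p 0.0531 to 0.0825). Its highest arrays were Pargana M85 (8.93) and M13 (8.65), the highest in pituitary genes, and without both the difference was 0.58 and no longer called. Hatchery M123, with a pituitary mean of 8.31, read 7.72 for plvapb. The part of pituitary tissue in the difference was not tested.

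Among membrane traffic genes, bet1, a SNARE gene of transport between endoplasmic reticulum and Golgi, read 10.17, 10.04, 10.11 and 10.03 in Pargana and 11.96, 11.29, 11.58 and 11.69 in Hatchery. The Pargana arrays were close to each other and all lay more than 1 log2 unit below Hatchery, at -1.58 (SE 0.22, adjusted p = 0.00507), with a call in each fit without 1 array. WASHC3, a subunit gene of the endosomal WASH complex, was lower by 1.68 (-1.68, SE 0.30, adjusted p = 0.0214), and lost its call without Pargana M21 or Hatchery M119 (0.0532 to 0.0596). svopb, a relative of the synaptic vesicle protein SV2, read 7.02, 6.18, 6.31 and 6.46 in Pargana and 5.16, 4.56, 4.78 and 4.68 in Hatchery. It was separate by 1 log2 unit and higher by 1.67 (SE 0.20, adjusted p = 0.00258), with a call in every fit without 1 array. SLC18B1, a vesicular polyamine transporter gene of the set of 32, was higher by 1.13 (SE 0.15, adjusted p = 0.00346), and HDAC10, a polyamine deacetylase gene of that set, by 0.95 (SE 0.14, adjusted p = 0.00807).

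Of genes for sugar chains and signalling, the gene ENSDARG00000093521 under the symbol B3GNT3, an N-acetylglucosaminyltransferase, read 8.10, 8.44, 7.82 and 8.34 in Pargana and 4.79, 5.33, 4.69 and 5.25 in Hatchery. No Hatchery array came within 2 log2 units of Pargana, and the difference of 3.25 (SE 0.45, adjusted p = 0.00442) was called in each fit without 1 array. The gene ENSDARG00000054373 of the same symbol was higher by 2.13 (SE 0.42, adjusted p = 0.0331), and lost its call in 7 of the 8 such fits, all but that without Pargana M13 (0.0524 to 0.0819). The 2 remaining genes of the symbol did not pass (1.28, SE 0.33, and 0.78, SE 0.26). Whether probes of the 4 share signal was not tested. cishb, a feedback inhibitor gene of cytokine signalling, read 7.22, 6.995, 7.21 and 7.64 in Pargana and 8.998, 8.62, 9.05 and 9.04 in Hatchery. It was lower in all Pargana arrays, by 1.63 (-1.63, SE 0.27, adjusted p = 0.016), with the call lost without Pargana M21 or Hatchery M57 (0.0544 to 0.0581).

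The protein kinase C substrate gene MARCKS (ENSDARG00000004049, -1.54, SE 0.29), the phospholipase gene PLCD1 (ENSDARG00000059123, -1.48, SE 0.29) and NDRG1 (ENSDARG00000010420, -1.42, SE 0.28) were lower in Pargana, each by the call of 1 of several genes with that symbol. The other MARCKS, PLCD1 and NDRG1 genes differed by -0.24, 0.02 and 0.29 and did not pass. The calls were lost without 4, 5 and 6 arrays. For MARCKS these were Pargana M21 and Hatchery M57, M47 and M119 (adjusted p 0.0505 to 0.0744), for PLCD1 Pargana M21 and M13 and Hatchery M57, M47 and M119 (0.0578 to 0.112), and for NDRG1 Pargana M85, M21 and M13 and Hatchery M47, M123 and M119 (0.0505 to 0.0966).

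The called DNA repair genes ran in both directions, while most members of the list lay on the lower side. HELQ, a helicase gene of replication fork repair, read 9.21, 9.35, 8.72 and 9.26 in Pargana and 10.48, 10.24, 10.46 and 10.63 in Hatchery. All Pargana arrays were lower, by 1.32 on average (-1.32, SE 0.21, adjusted p = 0.0111), with a call in each fit without 1 array. The topoisomerase gene TOP3A, of the set of 32, fell by 1.06 (SE 0.15, adjusted p = 0.00546). UNG (ENSDARG00000094922), the uracil glycosylase that starts base excision repair, was higher (1.64, SE 0.34, adjusted p = 0.0432), as was NEIL1, a glycosylase for oxidised bases (0.89, SE 0.16, adjusted p = 0.0188). The second gene with the symbol UNG ran the other way without passing (-0.74, SE 0.29), and the called one kept its call only without Pargana M140 (0.0701 to 0.119 in the other 7). NEIL1 lost its call without Pargana M21 or M13 or Hatchery M57 or M119 (0.0532 to 0.0731). The list had 2 of 56 members called higher and 1 called lower (5.36% called), with a median of -0.11. Of its members 39 were on the lower side and 17 on the higher side. At an unadjusted p under 0.05 in limma there were 16, beside 2268 of all 15648 genes. xndc1, with a domain like that of the repair protein XRCC1, was higher by 1.40 (SE 0.28, adjusted p = 0.0331), and lost its call without Pargana M85, M21 or M13 or Hatchery M123 or M119 (0.0623 to 0.0897).

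Among stress proteins, HSPB2, a small heat shock protein gene expressed in mammalian muscle, read 6.33, 6.07, 6.62 and 6.80 in Pargana and 8.24, 8.16, 8.06 and 8.24 in Hatchery. The Hatchery arrays were close to each other and lay more than 1 log2 unit above Pargana, at -1.63 (SE 0.23, adjusted p = 0.0046) with a call in each fit without 1 array. It was the only called gene of 54 chaperone and heat shock genes (1.85%), whose median was 0.04.

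Receptors and hormone genes seldom passed. Of 42 neuropeptide genes and 44 neuropeptide receptor genes 0 passed in limma. At an unadjusted p under 0.05 the counts were 12 and 5, beside 2268 of all 15648 genes. The galanin receptor gene GALR2 (1.74, SE 0.40, adjusted p = 0.0631), the CRH receptor gene CRHR1 (-0.58, SE 0.15, adjusted p = 0.0794) and the cholecystokinin gene CCK (0.75, SE 0.19, adjusted p = 0.0811) came closest. Hatchery M57 and M47 were the lowest arrays for GALR2 and CCK. The median of the neuropeptide list was 0.22 and that of the diencephalic list 0.41, with 20 of its 24 members on the higher side and 0 called in limma (4 at an unadjusted p under 0.05), beside the low diencephalic values of Hatchery M57. Outside these lists, the vasopressin V2 type receptor gene avpr2b.1 (1.22, SE 0.19, adjusted p = 0.0104) and the secretory granule gene chgb (0.94, SE 0.14, adjusted p = 0.00807), both of the set of 32, were higher in Pargana, with array ranges of 7.73 to 8.25 against 6.24 to 7.30 and 12.40 to 12.68 against 11.29 to 11.98. For chgb and avpr2b.1 alike the lowest array was Hatchery M57, and both calls remained without it.

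Of 27 stress axis genes, CYP11A1 (ENSDARG00000002347), the enzyme that starts steroid synthesis, was the only one called (3.7%). It was higher by 0.98 (SE 0.18, adjusted p = 0.0282), at 6.23 to 6.86 in Pargana and 5.40 to 5.68 in Hatchery, and lost its call without Pargana M13 or any 1 Hatchery array (adjusted p 0.0505 to 0.0850). The other gene with the symbol CYP11A1 was higher by 1.44 (SE 0.42, adjusted p = 0.127) and did not pass. The corticotropin receptor gene mc2r (-1.21, SE 0.31, adjusted p = 0.0837) did not pass. Of serotonin, GABA and glycine, and glutamate genes (18, 29 and 37 measured) 0 passed in limma. At an unadjusted p under 0.05 the counts were 2, 3 and 2, beside 2268 of all 15648 genes.

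KCNA1 (ENSDARG00000017108), a potassium channel gene, was the 1 called member of 82 voltage-gated channel genes (1.22%), at -0.79 (SE 0.17, adjusted p = 0.0466), and CBLN4, a synaptic organiser of the cerebellin family, that of 32 cerebellum and hindbrain genes (3.12%), at 0.57 (SE 0.12, adjusted p = 0.0439). CBLN4 lost its call in each of the 8 fits without 1 array (0.0502 to 0.139) and KCNA1 in 6, all but those without Pargana M85 or Hatchery M47 (0.0791 to 0.137). The other KCNA1 gene differed by -0.04 (SE 0.10) and did not pass, and the KCNA1 call was also lost with genes of a symbol averaged. The pituitary hormone list had 0 of 14 called in limma (3 at an unadjusted p under 0.05), with the gonadotropin gene fshb at 2.80 (SE 0.69, adjusted p = 0.0768), and the eye and pineal list 0 of 48 (10 unadjusted), although 36 of its members were on the higher side and its median was 0.40. In telencephalon the medians of the diencephalic, eye and pituitary lists were -0.14, 0.003 and -0.03.

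**Figure D4:**
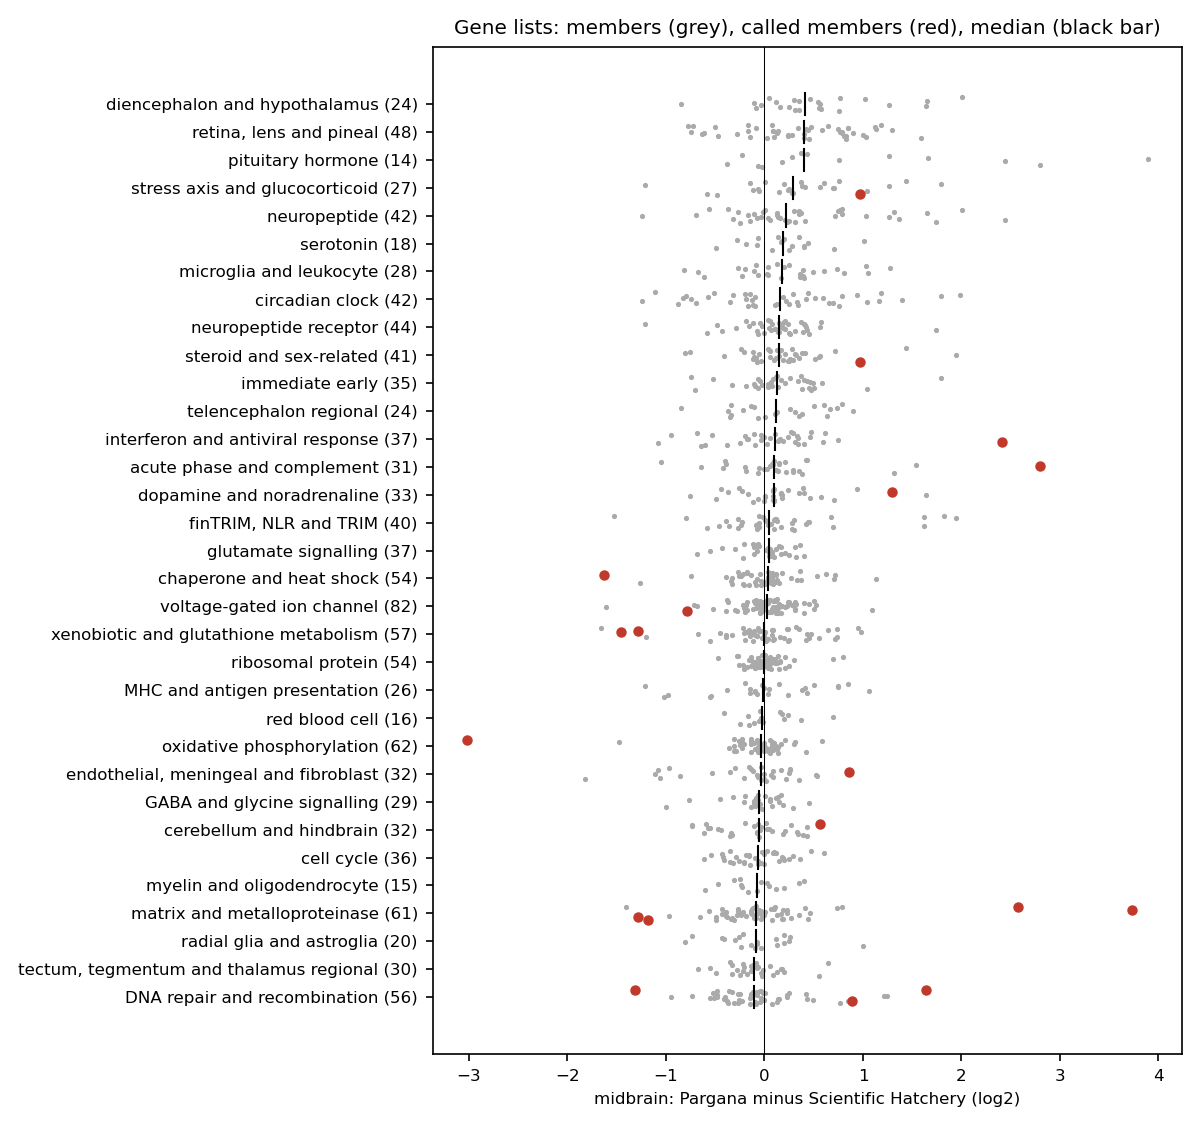
Pargana minus Hatchery difference in midbrain (log2) for the members of 33 gene lists, with the number measured in brackets, red points for called members and a black bar at each list's median. No list holds more than 4 called members, and the lists with the highest medians (0.41, 0.40 and 0.40) are those of the diencephalon, the eye and pineal, and the pituitary, without a called member.

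In all, 1166 genes were in at least 1 of the 33 lists, 18 of them were called, 10 higher and 8 lower, and 20 lists held no called member. rbp3, a retinoid-binding protein gene of photoreceptors, was higher in Pargana (1.69, SE 0.23, adjusted p = 0.00441), at 8.28, 8.98, 7.85 and 9.03 in Pargana and 6.79, 6.86, 6.98 and 6.91 in Hatchery. The groups were separate, with Pargana M13 and Pargana M21, the array high in eye genes, the highest. Its call held without Pargana M21, but not with all 31 arrays in the fit (adjusted p = 0.260). Nadia M98, with an eye and pineal list mean of 7.48, read 7.04 for rbp3. The part of eye tissue in the difference was not tested. rbp3 is not a member of the eye and pineal list. Nor are the opsin gene OPN4 (ENSDARG00000053929, 0.90, SE 0.17, adjusted p = 0.0282) and pcare2 (1.39, SE 0.30, adjusted p = 0.0474), both called higher. The other OPN4 genes did not pass.

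Seen among all 4 populations, most of the 139 differences did not separate all wild from all domesticated arrays, which is a strict criterion. In 63 of them (30 higher, 33 lower) the 4 Pargana arrays were apart from the other 12 midbrain arrays, against 1.14% of all genes; GDF2, mmp20b, itgam.1, svopb and bet1 are of this kind. In 23 (8 higher, 15 lower) the Hatchery arrays were apart from the other 12, against 0.537% of all genes, and cox7a1, CA12, CLDN2 and mxd are of this kind. cox7a1 read 8.97 to 9.45 in Nadia and 8.47 to 10.46 in Transgenic Mosaic 1, close to Pargana. In the remaining 53 neither group was apart. The call itself favours genes whose arrays lie apart, so these counts are description.

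Of the 139, 3 genes (crp3, CILP2 and COASY) had all 8 wild arrays on 1 side of all 8 domesticated arrays, beside 0.153% of all genes. crp3 read 8.61 to 9.56 in Nadia and 5.62 to 6.83 in Transgenic Mosaic 1, and CILP2 8.28 to 9.05 and 9.41 to 9.99. GDF2 read 5.62 to 7.16 in Nadia and 6.12 to 9.27 in Transgenic Mosaic 1. Tested in the same fit, 322 genes passed for Pargana minus Nadia (2.06%) and 320 for Pargana minus Transgenic Mosaic 1 (2.04%). For Hatchery, 87 passed against Nadia (0.556%) and 137 against Transgenic Mosaic 1 (0.876%). These contrasts share arrays with the main one and are not independent of it.

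Telencephalon arrays of the same populations, which the midbrain fit did not use, gave similar differences for some of the leading genes, while others did not pass there. Fitted alone, telencephalon had 49 called genes (0.313%), 20 higher and 29 lower. Of the 139 midbrain genes, 133 had the same sign there, beside 61% of all genes. A telencephalon difference over 0.5 of the midbrain one, in the same direction, was seen in 100. The share over all genes was not computed, and the 139 were called for their midbrain difference, so this count is description. Called in both regions were 18 genes, 12.9% of the midbrain calls and 36.7% of the telencephalon calls, with 0 in opposite directions. A fit of all 31 arrays, which was run first and replaced after its count was seen so that both regions were fitted the same way, called 159 telencephalon genes, 36 of them shared (25.9% of the midbrain calls and 22.6% of those 159). The telencephalon count was 26 without T21 or T123 and 29 without T57. Same-numbered arrays of the regions deviated together, so the regions are not independent samples of each population.

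**Figure D5:**
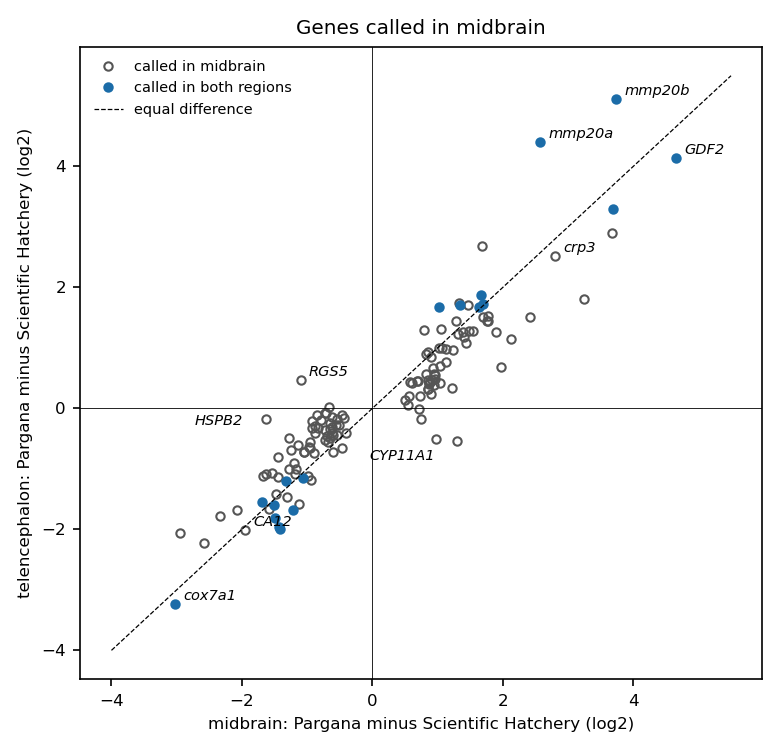
Pargana minus Hatchery difference (log2) in telencephalon against that in midbrain for the 139 genes called in midbrain, 1 point per gene, with filled points for the 18 called in both regions and a dashed line at equal difference. Most points follow the line, and HSPB2 and CYP11A1 (ENSDARG00000002347) are among those that do not.

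In telencephalon GDF2 read 10.45, 11.31, 10.10 and 11.42 in Pargana and 7.28, 6.13 and 7.04 in Hatchery (T57, T47 and T123), a difference of 4.14 (SE 0.64, adjusted p = 0.0172). The fish of arrays M21 and M13 were the higher Pargana fish and those of M85 and M140 the lower in both regions. mmp20b read 10.17, 10.44, 10.62 and 10.29 against 5.30, 4.77 and 5.59 there, without the high array seen in midbrain (the fish of M119 has no telencephalon array here), and differed by 5.11 (SE 0.22, adjusted p = 1.05e-07). mmp20a differed by 4.40 (SE 0.32, adjusted p = 1.43e-05), cox7a1 by -3.24 (SE 0.36, adjusted p = 0.00185) and CLDN2 by -1.60 (SE 0.26, adjusted p = 0.0225).

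The sign was opposite in telencephalon for 6 of the 139, among them CYP11A1, RGS5, sb:cb81, MCOLN1 and IMPDH1, named here for that reason. CYP11A1 (ENSDARG00000002347) differed there by -0.50 (SE 0.39), which did not pass. The other CYP11A1 gene, not called in midbrain, differed by 0.79 (SE 0.35) in telencephalon, the same sign as in midbrain, and did not pass. HSPB2 differed by -0.17 (SE 0.41) in telencephalon, where its arrays overlapped. The difference between regions was tested for every gene in a limma fit that treated arrays of the same fish as independent. Of the 139, 22 had an unadjusted p under 0.05 (780 of all genes did), but 0 passed after adjustment. HSPB2 had -1.46 (SE 0.48, adjusted p = 0.900) and CYP11A1 (ENSDARG00000002347) 1.48 (SE 0.44, adjusted p = 0.900). With fish number as a random block, neither passed (adjusted p = 0.373 for both).

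The 1 gene that passed that test (0.00639%) was ENSDARG00000045097, which has no symbol here. It read 10.25, 10.03, 10.00 and 9.86 in Pargana midbrain and 10.57, 10.39, 10.16 and 9.99 in Hatchery midbrain, and 10.80, 11.13, 11.05 and 11.25 against 9.98, 10.23 and 9.87 in telencephalon. The populations overlapped in midbrain (-0.27, SE 0.13) and were separate in telencephalon (1.05, SE 0.18), a difference between regions of -1.31 (SE 0.21, adjusted p = 0.0371). With fish number as a random block 2 genes passed, and 0 passed without both arrays of the fish M21, M140, M13, M57, M47 or M123. FAT2, which encodes a giant cadherin found on granule cell axons in mammals, had -1.97 (SE 0.35, adjusted p = 0.0643) without the block and passed with it (adjusted p = 0.00771). In midbrain FAT2 differed by -0.62 (SE 0.23), with arrays that overlapped, and did not pass. Its telencephalon difference was 1.35 (SE 0.25), between dim arrays of 5.77 to 6.69 in Pargana and 4.67 to 4.99 in Hatchery. All of these lay under 7.06, the limit of the dimmest 25% of genes in midbrain.

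Some called genes are neighbours on the chromosome. By the gene order of the RefSeq assembly GRCz12tu, which is not the build of the arrays, 85 called genes could be placed among 9566. Of these 85, 8 (9.41%) were next to a called gene of the same direction, beside 0.889% of placed genes called and 1.78% of placed genes next to any called gene. The pairs were GDF2 and rbp3, mmp20a and mmp20b, tnfsf10l3 and xndc1, all higher in Pargana, and n4bp2 and RHOH, both lower. In a further 2 pairs, DUSP6 with poc1b and CA12 with NEIL1, neighbours ran in opposite directions. Within 5 places of each other there were also gzm3 and gzm3.4, both higher, and pcare2 and SMIM8, in opposite directions.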

How the data were processed

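RNA of individual brain samples was extracted with Trizol and hybridised to 1-colour NimbleGen arrays, per the labels' protocols. The values used are the authors' deposited log2 intensities, 1 value per Ensembl gene and array, summarised by RMA; the submitters' processing notes name RMA and Zv9, with no settings. No scale was changed and no gene filtered. The 1 row that names no gene (0.00639%) was left out, and 13251 of the 15648 genes have a symbol from the tables used. Groups came from the labels. A linear model (limma 3.58.1 in R 4.3.3) with 4 population means and sex was fitted to 16 midbrain arrays, with 11 residual degrees of freedom, and p-values were adjusted by Benjamini-Hochberg over all genes. Telencephalon was fitted in the same way on its own, and the difference between regions on 31 arrays. The number of arrays limits the precision. Each p-value sets a difference against the spread within populations, estimated from the arrays of all 4 populations in the fit. Nothing in the labels says whether fish shared a tank or family, so that spread is the one between these fish.

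Fish numbers pair the regions: same-numbered arrays deviated together in 15 of 15 pairs (correlation 0.121 to 0.542). Named genes are the 15 largest differences in each direction, among called genes with a symbol and groups that do not overlap, plus list members that passed, or the 2 with the smallest p where fewer than 2 did. The groups, lists and genes were chosen with earlier results of these data known. The scripts were tested on simulated data. A result that named a withheld item is not reported here.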

Additional observations from a re-analysis of the deposited data

Results flagged for a closer look

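In 6 of the 82 groups of 4 arrays tested, 1 array stood apart from the other 3 by Dixon's test of the gap over the range, and chance gives such a flag in about 1 in 20 groups. All 6 were Hatchery arrays. Not every gene named above was among the groups tested. For col9a1b, which was not, Pargana M140 read 6.33 against 10.32 to 10.59 in the other Pargana arrays. Hatchery M57 read 5.98 for mmp20a against 4.72 to 4.93 in the others, 5.56 for mxd against 5.99 to 6.04, and 8.60 for CLDN2 against 9.11 to 9.20. Hatchery M47 read 6.22 for CA12 against 7.40 to 7.55, and 8.62 for cishb against 8.998 to 9.05. Hatchery M119 read 8.66 for AS3MT against 7.08 to 7.20. The populations' difference itself differed between midbrain and telencephalon for ENSDARG00000045097 by -1.31, tested as an interaction.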

How the results depend on the processing

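The 139 midbrain calls became 32 with only the 8 arrays of both populations, 52 without Transgenic Mosaic 1, 9 with female arrays only, 81 without Pargana M85 and M13, 26 at an adjusted p under 0.01 and 74 with a 2-fold minimum; fewer arrays or a stricter threshold are part of each of these. Leaving out 1 array gave 63 to 151. A further 10 settings gave 116 to 179, within 1.5 times: all 31 arrays, no Nadia, no sex term, Pargana M21 taken as male, trended robust moderation, array weights, no dimmest 25% of genes, genes of a symbol averaged, arrays shifted to the same median, and quantile normalization. The 1 gene of the difference between regions became 2 with fish number as a replicate block, 2 with array weights, 2 without the dimmest genes and 0 after the median shift, and 0 to 1 without 1 array; the cause was not tested. Telencephalon had 49 calls, 159 with all 31 arrays, and 26 to 47 without 1 array, settings chosen after seeing the data. No paired analysis of Pargana against Hatchery was possible because they share 0 fish numbers. For the difference between regions fish numbers do pair the arrays, and only the fit with fish number as a block used this. Values near the array background have no detection call and limit what dim genes can show.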
